A study of Mus musculus with 5 samples.

Results

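The sites described here are the places where the peak list of the transcription factor Hand1 and the peak list of the transcription factor Foxf1 lie on the same DNA in differentiating mouse cells. A Hand1 peak was taken as shared when its interval had at least 1 bp in common with a Foxf1 peak. This chose 200 of the 1134 Hand1 peaks (17.6%) and 185 of the 5703 Foxf1 peaks (3.24%), of 6837 peaks in both lists together. Several peaks can be summits of 1 interval, so the 200 Hand1 peaks stand in 176 intervals and the sites fall into 171 separate loci. The overlap is the rule that chose the sites, so the count is a description. The same holds for the distances between summits and for the values that follow.

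Chromatin immunoprecipitation followed by sequencing (ChIP-seq) recovers the DNA that a protein was bound to in fixed cells, and a peak is a stretch where the recovered fragments pile up over a control. Embryonic stem cells of the mouse line E14 formed embryoid bodies over 48 h. They were then re-aggregated with VEGF, activin A and BMP4 for 40 h (the stage labelled MES) and grown as a monolayer with VEGF, basic FGF and FGF10 for a further 32 h (the stage labelled CP). Hand1-HA came from a knock-in line sampled at MES (1 library), and Foxf1-HA from an inducible overexpression line at CP (2 libraries), and both tags were precipitated with a home-made HA antibody. Input chromatin, which skips the precipitation, was sequenced once at each stage, making 5 samples in 4 groups. The inducer and its dose are not given in the labels, and nothing says whether either line is a single clone. Factor, stage and the way the protein was expressed differ together between the lists and cannot be told apart. Peak lists of 2 samples were used, the Hand1 library and the Foxf1 library labelled replicate 1. Whether the Foxf1 list was called on that library alone is not stated. With 1 list per factor, no value below has a replicate error and no difference was tested.

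Hand1 is a basic helix-loop-helix factor that pairs with other proteins of its class and binds E-boxes, the letters CANNTG, and it is known for its part in the placenta, the extraembryonic mesoderm and the left ventricle of the heart. Foxf1 is a forkhead factor of the lateral plate and splanchnic mesoderm, known for its part in lung, gut and vessel development downstream of Hedgehog signalling. Much of what follows concerns genes of RNA polymerase III, the enzyme that makes transfer RNAs (tRNAs), 5S ribosomal RNA and other short RNAs. It finds tRNA genes through letters inside the gene itself, among them the B box, written here as GTTCNANNC.

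Some shared sites are shown first by their sequence, because each places peaks of both factors at the start of a gene that the results return to. The letters are those of the 250 bases before the RefSeq gene start that lie inside both peaks (assembly GRCm38.p6, read 5′ to 3′ on the strand of the gene). Parts of the shared peaks farther from the start are not printed. Capitals mark an E-box or a B box found on either strand. Polr3e (chr7:120917528-120917777, plus strand) encodes a subunit of RNA polymerase III, and Prmt5 (chr14:54517579-54517720, minus strand) an arginine methyltransferase. Both have a tRNA gene just upstream. Nop14 (chr5:34660149-34660398, minus strand) encodes a factor needed to build the small ribosomal subunit. Kmt2a (chr9:44881314-44881539, minus strand) encodes a histone H3 methyltransferase, and Srf (chr17:46556163-46556206, minus strand) the serum response factor of muscle and growth genes. Gm17382 (chr17:26886247-26886496, minus strand) is the start nearest to the only shared site within 50 kb of the cardiac gene Nkx2-5. Kmt2a and Srf were chosen after their values were seen.
Polr3e: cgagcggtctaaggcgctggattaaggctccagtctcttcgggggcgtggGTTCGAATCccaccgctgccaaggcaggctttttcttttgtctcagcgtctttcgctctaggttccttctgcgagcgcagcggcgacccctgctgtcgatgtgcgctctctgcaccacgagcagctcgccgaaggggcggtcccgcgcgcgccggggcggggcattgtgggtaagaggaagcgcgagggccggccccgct
Prmt5: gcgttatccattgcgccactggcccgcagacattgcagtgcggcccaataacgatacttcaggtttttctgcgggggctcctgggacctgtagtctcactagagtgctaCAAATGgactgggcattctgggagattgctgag
Nop14: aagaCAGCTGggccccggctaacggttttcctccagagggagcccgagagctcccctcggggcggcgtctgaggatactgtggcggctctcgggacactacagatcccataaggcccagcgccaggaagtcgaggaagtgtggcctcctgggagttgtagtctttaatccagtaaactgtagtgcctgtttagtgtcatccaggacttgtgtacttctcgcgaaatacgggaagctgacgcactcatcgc
Kmt2a: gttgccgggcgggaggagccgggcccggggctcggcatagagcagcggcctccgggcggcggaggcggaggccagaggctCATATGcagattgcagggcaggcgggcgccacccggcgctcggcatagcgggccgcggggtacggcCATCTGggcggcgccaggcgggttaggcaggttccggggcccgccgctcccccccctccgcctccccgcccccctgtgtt
Srf: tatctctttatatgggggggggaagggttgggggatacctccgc
Gm17382: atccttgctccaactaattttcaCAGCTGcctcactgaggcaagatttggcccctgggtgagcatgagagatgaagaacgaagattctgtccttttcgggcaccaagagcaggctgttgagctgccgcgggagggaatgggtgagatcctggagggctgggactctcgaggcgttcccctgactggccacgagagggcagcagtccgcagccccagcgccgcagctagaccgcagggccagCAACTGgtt
The capitals of Polr3e lie at -200 to -192 relative to the gene start and belong to the tRNA gene n-TLaag4, which spans -261 to -180. The Hand1 summit stood at -210 and the Foxf1 summit at -102. At Prmt5 the Hand1 summit stood at -261 and the Foxf1 summit at -252, both inside the tRNA gene n-TRacg6 at -298 to -226. Both summits and most of that tRNA gene lie before the printed letters. The missing part was not searched, so the lack of a marked B box there says nothing about the tRNA gene. At Nop14 the summits stood at -49 and -223, and the same peaks cover the start of Grk4 on the other strand, with summits at -182 and -8 from it. At Kmt2a they stood at -174 and -155, the first within a few bases of the E-box CATATG at -170 to -165. Kmt2a was the only printed sequence with CATCTG, the E-box form searched for as a Hand-type site, at -104 to -99. Srf had no E-box or B box in the printed letters, and its summits lay inside the gene at 88 and 131.

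These letters are common in promoters at large. Of 32851 RefSeq promoter sequences of 250 bases, 66.2% held an E-box, 14.4% held CATCTG and 7.85% held a B box. In the same 250 bases an E-box was found in 8 of the 15 promoters at shared sites, CATCTG in 1 and a B box in 2. These counts take in bases outside the peaks, unlike the capitals above. The 15 include promoters that the shared peaks cover only in part, that of H2bc13 by 1 base. Some belong to sites of high control level, a measure defined below. The forkhead letters TGTTTAC were found in 3.17% of all promoters and in 0 of the 15, and TGTTTAT in 4.16% and in 1. AGATAA, the letters bound by GATA factors, were found in 9.99% and in 1. Every motif was searched on both strands, and CATCTG matches are also E-boxes. A match is a description of the letters and not a measured site.

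The sites were first separated by the level of the control. For each summit the authors' fold enrichment and p-value give the number of fragments and the control level, meaning the number of control fragments expected there at the depth of the factor's library. The control level is an inferred quantity and was called high at 5 times the lowest in its list or more, that is from 6.26 fragments for Hand1 and 7.83 for Foxf1. High levels were found at 133 of all Hand1 peaks (11.7%) and 208 of all Foxf1 peaks (3.65%). Among the shared sites, 128 were low in both lists, 65 (32.5%) were high in both and 7 were high in 1 list. The shared sites therefore held 69 of the 133 high Hand1 peaks (51.9%) and 72 of the 208 high Foxf1 peaks (34.6%). Control levels of the lists rose together across sites (Spearman's rho 0.89 over 174 Foxf1 partners, 0.59 over the 107 of low sites and 0.94 over the 60 of high sites). These are descriptions across sites that share the same pair of libraries, and whether the control level sets the overlap was not tested.

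**Figure D1:**
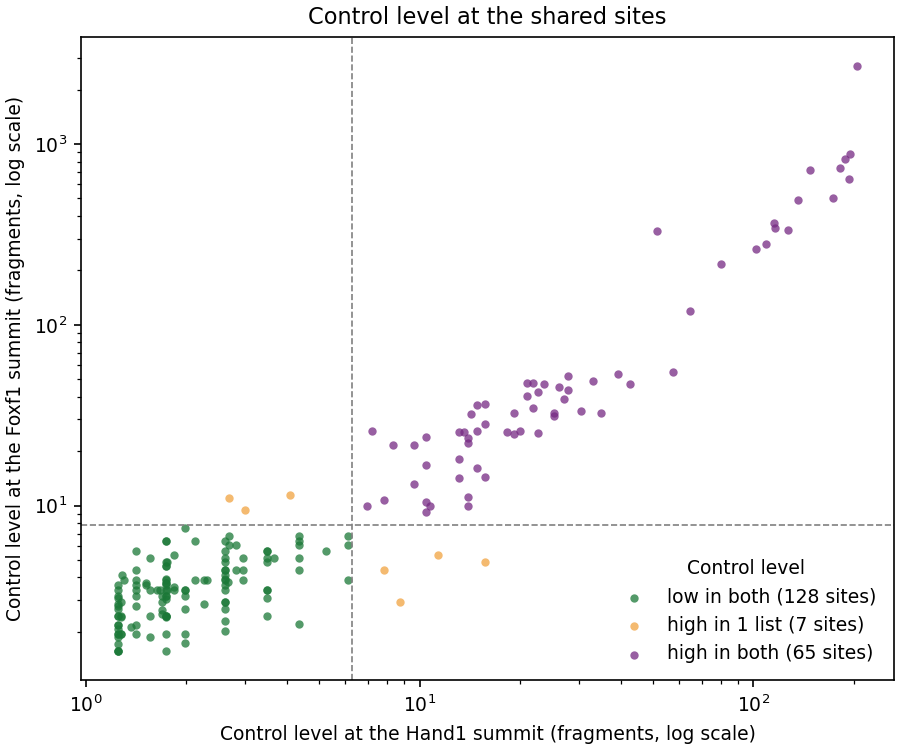
Control level (fragments, log scale) at the Hand1 summit on the x axis and at the Foxf1 summit on the y axis for the 200 shared sites, with the limits of 6.26 and 7.83 as dashed lines. The 65 sites high in both lists form a tail that reaches 204 and 2701 fragments, and 128 sites lie below both limits.

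The sites differed in place as well as in control level. Of the 128 low sites, 60 had a Hand1 summit within 1 kb of a gene start (46.9%, exact 95% Clopper-Pearson interval 38.0% to 55.9%, which treats neighbouring peaks as independent and covers counting error only). The whole Hand1 list had 48.1% and the Foxf1 list 30.4%. Another 27 low sites lay inside a gene farther from its start (21.1%, against 25.3% and 40% of the lists). A further 37 lay outside genes within 50 kb (28.9%, against 21.8% and 27.7%), 3 lay beyond 50 kb of any gene (2.34%, against 3.7% and 1.24%), and 1 lay on an unplaced scaffold (against 1.06% and 0.701%). Of the 65 sites high in both, 10 lay within 1 kb of a start (15.4%), 20 inside a gene (30.8%), 25 outside within 50 kb (38.5%), 5 beyond (7.69%) and 5 on a scaffold (7.69%). The share near a start in low sites was thus close to that of the Hand1 list, while sites high in both lay mostly away from starts. Gene spans were used, so exons, introns and untranslated regions were not told apart.

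**Figure D2:**
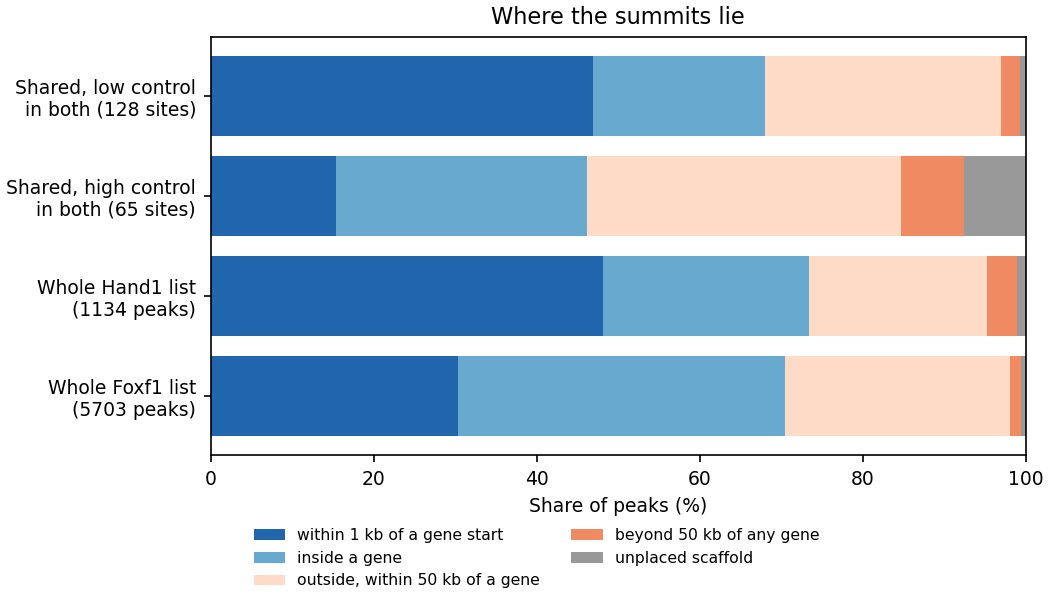
Share of peaks (%) by the place of the summit for the 128 low sites, the 65 sites high in both lists, and both whole lists of 1134 and 5703 peaks. The dark blue part, summits within 1 kb of a gene start, is 46.9% in the low sites and 15.4% in the sites high in both.

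Many of these starts were those of small RNA genes. A protein-coding start lay within 1 kb for 21 of the 200 sites (10.5%), 18 of them low, against 17.1% of the Hand1 list and 24% of the Foxf1 list. A tRNA gene lay within 500 bp of 29 sites (14.5%), 27 of them low (21.1% of low sites), against 24.7% of the Hand1 list and 0.298% of the Foxf1 list. All polymerase III genes together took 37 sites, 32 of them low (27.6% and 0.438% of the lists), and those other than tRNA genes took 8, of which 5 were low (2.91% and 0.14%). Histone genes, which are expressed as cells copy their DNA, lay within 1 kb of 10 sites (5%), all low (7.81% of low sites), against 9.35% and 0.0701%. Over all 200 sites the shares at tRNA, polymerase III and histone genes were thus below those of the Hand1 list. Among low sites they were close to it. The exact 95% intervals there were 14.4% to 29.2%, 17.8% to 33.4% and 3.81% to 13.9%, and each held the Hand1 share. Counted by Foxf1 summits, 9.19%, 13.5% and 2.16% of the 185 Foxf1 partners lay at these genes, above the shares of the Foxf1 list. An snRNA or snoRNA gene, for RNAs of splicing and of ribosomal RNA processing, lay within 500 bp of 9 sites (4.5%). All were low (7.03% of low sites), against 3.62% and 0.245% of the lists. Seen from the Foxf1 list, all 17 peaks at tRNA genes, all 25 at the polymerase III genes counted and all 4 at histone genes were shared. Of the 14 at snRNA or snoRNA genes, only 6 were. Of the 280 Hand1 peaks at tRNA genes, 29 were shared (10.4%). Genes of these families have near-identical copies, and how reads that fit several copies were placed is not given in the sources used here.

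At the tRNA genes the Hand1 fold was high and the Foxf1 fold lay near its list median. Fold is the authors' enrichment of the summit over control, on a linear scale, and it depends on each library's own depth, so the folds of the lists are set side by side with each list's median (7.92 for Hand1, 7.62 for Foxf1). Over the 27 low sites at tRNA genes the Hand1 fold ranged from 5.21 to 44.6 with a median of 17.5. Their Foxf1 fold ranged from 5.57 to 11.8 with a median of 6.53, in which some Foxf1 peaks count several times. Counted once each, the 17 Foxf1 partners had a median of 7.58, and 10 of them lay below the list median. All tRNA peaks of the Hand1 list had a median fold of 15.7, and all those of the Foxf1 list 7.28. The highest Hand1 fold, 44.6, stood at the serine tRNA gene n-TSgct3 on chromosome 11 (chr11:69062177-69063645). In the same interval n-TIaat4 had 28.8 and n-TTagt7 had 16.4. All 3 shared 1 Foxf1 peak, of fold 5.74. On chromosome 2, n-THgtg5 (chr2:122377793-122378240) had a Hand1 fold of 32.9 and n-THgtg3 (chr2:122377152-122377625) 23.2, again with 1 Foxf1 peak, of fold 7.26. The highest Foxf1 fold at a tRNA gene, 11.8, was that of n-TLaag4 beside Polr3e, where the Hand1 fold was 17.9. The inferred fragments there were 48 in each library.

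Read from the gene symbols, the 29 sites covered 14 of the 20 amino acids. Leucine had 6 sites, of 20 Hand1 peaks at leucine tRNA genes. Histidine had 3 of 9 and serine 3 of 19. Lysine had 0 of 18, and aspartate and glutamine each had 0 of 12. These counts are small, and neighbouring tRNA genes share Foxf1 peaks.

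The summits of the factors lay apart at tRNA genes. In the low sites 26 of 27 Hand1 summits stood inside the tRNA gene, as did 270 of the 280 in the whole Hand1 list. The 27 sites had 17 Foxf1 partners, and 3 of these had a summit inside a tRNA gene. For 9 of the 17 the nearest tRNA gene was more than 200 bp away, with a median of 238 bp and a maximum of 817 bp. The 3 Foxf1 summits inside a gene were those at n-TRacg6 beside Prmt5, n-THgtg5 and n-TNgtt13. At n-TRacg6 (chr14:54517534-54517936), with folds of 27.9 and 6.53, the summits stood 9 bp apart. The largest separation from the gene, 817 bp, was at n-TRcct1 (chr6:38533778-38534356), whose nearest protein-coding gene is Fmc1, for an assembly factor of the mitochondrial ATP synthase. Its Hand1 fold was 15.1 and its Foxf1 fold 7.61. At the leucine gene n-TLtag1 (chr7:120835355-120835906) the folds were 14.7 and 9.80 and the summits lay 328 bp apart.

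**Figure D3:**
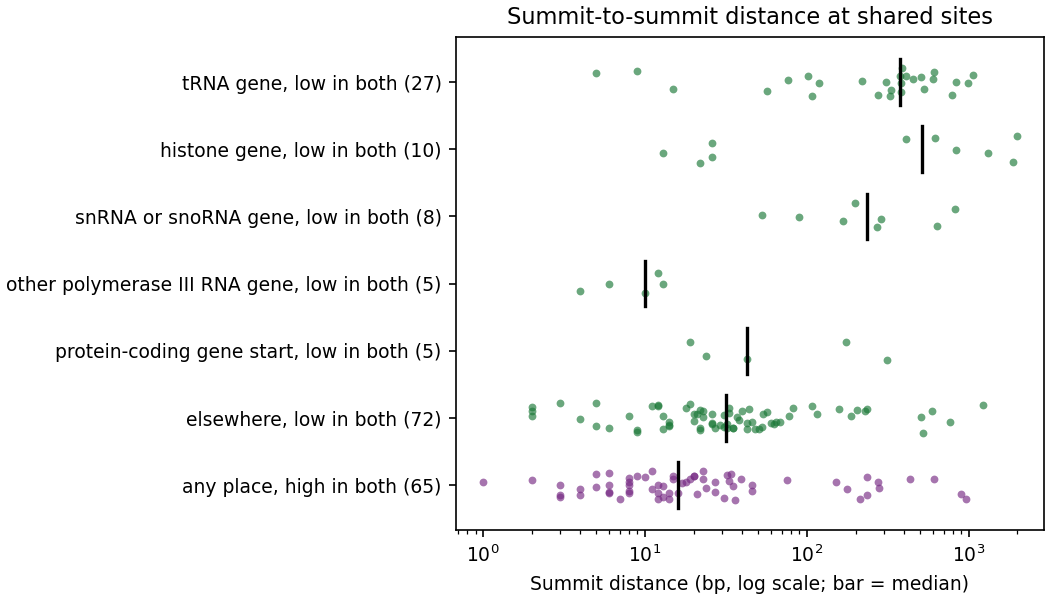
Distance between the Hand1 summit and the nearest Foxf1 summit (bp, log scale) for each shared site, grouped by what lies at the Hand1 summit, with the median as a bar. The medians are 376 bp at tRNA genes and 516 bp at histone genes, against 10 bp at other polymerase III genes, 31.5 bp elsewhere and 16 bp at sites high in both lists. Several Hand1 summits can count against 1 Foxf1 peak. Taken once per Foxf1 partner, to its nearest Hand1 summit, the median at tRNA genes is 274 bp, and at histone genes the 4 distances are 13 to 26 bp.

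At the other polymerase III genes the summits coincided. In the low sites there were 5 such peaks, with summit distances of 4 to 13 bp. Rn7s1 (chr12:69158606-69159692), a gene for the 7SL RNA of the signal recognition particle, had a Hand1 fold of 29.5 and a Foxf1 fold of 6.50. Rn7s2 (chr12:69360718-69361631), the other 7SL gene, had 21.7 and 6.21 at the summit inside the gene. A second summit of the same interval, 332 bp from Rn7s2, went the other way, with a Hand1 fold of 9.84 and a Foxf1 fold of 33.5. That Foxf1 value ranked 3 in the whole Foxf1 list. Rn7sk (chr9:78175184-78175719), for the 7SK RNA that restrains transcription elongation, had 19.6 and 4.85. Rny3 (chr6:47781539-47781843), for a Y RNA, had 10.4 and 6.88. All 3 peaks at 7SL genes and the single 7SK peak of each list were thus shared. The 5S genes took 3 of 25 Hand1 peaks and all 3 Foxf1 peaks, and these were high in both lists.

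Summit distances of the low sites differed by kind of place, though several Hand1 summits of 1 interval can count against the same Foxf1 peak. Over all 200 sites the median distance was 31.5 bp (quartiles 13 and 179 bp, range 1 to 1988 bp), with 123 sites at 50 bp or less and 23 beyond 500 bp. The low sites had a median of 47 bp, and the sites high in both 16 bp, 53 of 65 within 50 bp. The 5 low sites at a protein-coding start with no small RNA or histone gene beside it had a median of 43 bp. The 72 low sites elsewhere had a median of 31.5 bp, and 69.4% of them lay within 50 bp. The closest summits were 1 bp apart at chr8:20424544-20424938, a site high in both with folds of 3.22 and 17.8. Distances of 2 bp were found inside Nlrp4e, 209 kb from Nmur2, 2.95 kb from Rin3, and 195 kb from Cr2 at another site high in both. The farthest summits belonged to the histone interval described next. An overlap of intervals bounds the distance, so these are descriptions.

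The histone sites were 10 Hand1 summits in few, broad intervals on chromosome 13, with 4 Foxf1 partners. Their Hand1 folds ran from 4.22 to 12.4 with a median of 6.01, and their Foxf1 folds from 5.52 to 6.13 with a median of 5.87. The interval chr13:23574484-23576998 held 4 Hand1 summits, of folds 10.6 inside H2ac7, 12.4 inside H3c4, and 5.47 and 6.19 beside H3c4. The single Foxf1 partner, of fold 5.87, had its summit 26 bp from the first and 1311, 1864 and 1988 bp from the others. At chr13:21785943-21787224 beside H2ac22, 3 Hand1 summits of folds 5.80, 5.83 and 4.22 met 1 Foxf1 peak of fold 6.13. At chr13:21716425-21717363, inside and beside H2ac13, the Hand1 folds were 7.74 and 4.98 and the Foxf1 fold 5.76. Every Foxf1 fold at the histone genes was below its list median, and so was every Hand1 fold except those inside H2ac7 and H3c4. Each of the 4 Foxf1 partners had a Hand1 summit 13 to 26 bp from its own. The longer distances belong to further Hand1 summits of the same intervals.

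At snRNA and snoRNA genes the 8 remaining low sites had median folds of 6.36 and 6.00 and a median summit distance of 236 bp. Snord118 (chr11:69073298-69074095), a snoRNA gene beside Tmem107, had 7.56 and 6.66. An unnamed group of snRNA genes on chromosome 12 (Gm25679, Gm26444 and LOC115488077) held most of the others, with Hand1 folds of 4.48 to 8.22 and Foxf1 folds of 5.73 to 8.37 over the 6 sites there, 1 of which lay beside none of these genes.

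**Figure D4:**
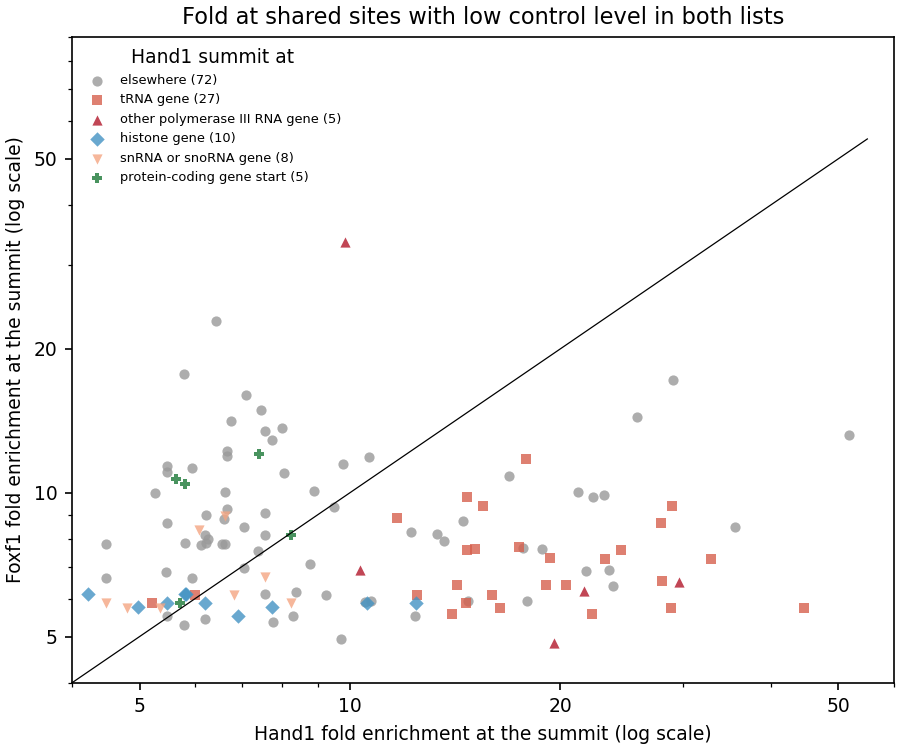
Fold enrichment at the Hand1 summit (x axis, log scale) and at the Foxf1 partner (y axis, log scale) for the low sites by kind of place, with the line of equal folds as a guide; the 1 site on a scaffold is left out. The tRNA sites spread from 5.21 to 44.6 along the Hand1 axis while their Foxf1 folds stay between 5.57 and 11.8.

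Of the 18 low sites within 1 kb of a protein-coding start, most were counted above at tRNA, other polymerase III or histone genes. Their folds leaned either way, with 27.9 and 6.53 beside Prmt5 but 4.22 and 6.13 at a summit inside H2ac22. The 5 low sites at a protein-coding start with no such gene beside it had a median Hand1 fold of 5.80. Their median Foxf1 fold was 10.4, the other balance from that at tRNA genes. Nop14 (chr5:34659708-34660490) had 7.40 and 12.1, and Slc12a9 (chr5:137334005-137334715), for a protein of the cation-chloride cotransporter family, had 8.22 and 8.17. Srf (chr17:46555617-46556224) had 5.80 and 10.4, Erfe (chr1:91366235-91366679), for the hormone erythroferrone, 5.64 and 10.7, and Kmt2a (chr9:44881314-44881793) 5.71 and 5.89. These last 3 were named after their values were seen. The Hand1 fold was below its list median at 4 of the 5, and the Foxf1 fold above its own at 4 of the 5. The printed Kmt2a sequence with its E-boxes therefore belongs to the site of this kind with the lowest Foxf1 fold.

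Sites near the far end of a protein-coding gene, or inside it, included several of higher fold. Gm5431 (chr11:48887384-48887893) had 14.5 and 8.74. A site 0.710 kb from Map3k7 (chr4:32023970-32024481), the gene of the kinase TAK1 in the TGF-beta and BMP pathways, had 13.3 and 8.18. A site 0.852 kb from Cirbp (chr10:80164967-80165289), for a cold-inducible RNA-binding protein, had 7.47 and 14.9. Gm52481 on the Y chromosome (chrY:90744184-90745129) had 8.77 and 7.09.

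The 72 low sites elsewhere were the largest group. They had 65 distinct nearest protein-coding genes, with 18 sites inside such a gene, 40 outside it within 50 kb and 14 farther away, and a median distance of 9.26 kb. Their median folds were 7.56 for Hand1 and 8.23 for Foxf1, close to the medians of the lists. Folds of the 2 factors did not rank together in the low sites (Spearman's rho -0.04 over 107 Foxf1 partners), whereas they did in the sites high in both (0.69 over 60). Fold is a ratio over the control level, which also set these classes and rose together between the lists. Both values are therefore descriptions across sites, and whether the control level gives the contrast was not tested.

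The strongest low sites, ranked by the weaker of their folds, lay mostly outside promoters. The first, chr1:102628090-102628398, had folds of 29.0 and 17.2 with summits 6 bp apart, and its nearest protein-coding gene, Cntnap5b, was 2138 kb away. The second, chr15:38169623-38170235, had 25.7 and 14.4 and lay 49.4 kb from Odf1, the gene of a sperm tail protein. The third, chr16:35981598-35981890, had the highest Hand1 fold of the whole list, 51.7, with a Foxf1 fold of 13.2 and summits 5 bp apart. It lay inside the gene model Gm15564, 108 bp from its start as placed here, and 1.55 kb from Kpna1, the gene of a nuclear import receptor. The fourth was the Polr3e site shown above.

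Further down the same ranking, the site near Chia1 (chr3:106102816-106103445), the gene of a chitinase, had 16.9 and 10.9. A site inside Nlrp4e (chr7:23324046-23324452), of the NLR family, had 10.7 and 11.9. Another inside the same gene (chr7:23332000-23332383) had 8.88 and 10.1. A site 18.5 kb from Gdf6 (chr4:9825632-9826144), the gene of a BMP-family ligand, had 23.1 and 9.90. The site inside Gm19951 (chr12:99645465-99645698) had 22.3 and 9.82. The last of the 12, chr11:57929502-57929896, had 9.77 and 11.5. It lay 43.8 kb from Larp1, whose protein controls translation of messenger RNAs for ribosomal proteins, and 97.5 kb from Hand1 itself. In all, 22 of the 100 highest Hand1 folds and 13 of the 100 highest Foxf1 folds were shared sites, against 17.6% and 3.24% of the whole lists. On the Hand1 side 21 of the 22 were low sites, whereas on the Foxf1 side 4 of the 13 were low, 8 were high in both and 1 was high in 1 list.

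A run of low sites lay among the Klrb1 genes on chromosome 6, which encode receptors of natural killer cells. The 6 sites had summits from 128760793 to 128839103, with Hand1 folds of 8.29 to 21.2 and Foxf1 folds of 5.51 to 10.0. The strongest was that 17.7 kb from Klrb1c (chr6:128760571-128761118), with 21.2 and 10.0 and summits 236 bp apart. The site near BC035044 (chr6:128838324-128838693) had 10.7 and 5.92 with summits 1223 bp apart.

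Genes of the mesodermal programme were looked up by distance. Over all 21900 protein-coding genes, 1.43% had the summit of a shared site within 50 kb, 6.06% had any Hand1 summit and 41.7% any Foxf1 summit. Of 32 genes of the heart field and cardiac mesoderm, Nkx2-5 alone had the summit of a shared site within 50 kb, whereas 11 had any Hand1 peak and 22 any Foxf1 peak. That site (chr17:26886172-26887052), 41.3 kb from Nkx2-5 and 21 bp from the start of Gm17382 printed above, had folds of 5.47 and 5.51, both below the list medians. Its nearest protein-coding gene was Kifc5b, 30.8 kb away. Nkx2-5 encodes a homeodomain factor of early heart cells. Of 14 Hedgehog pathway genes, Gli1 alone had such a site, with 2 near any Hand1 peak and 8 near any Foxf1 peak. The Gli1 site (chr10:127376744-127377336) lay 35.4 kb away, closer to R3hdm2, and had folds of 6.75 and 14.1 with summits 26 bp apart. Gli1 is a transcription factor and a target of the pathway. Of 13 pluripotency genes and 13 neural genes, 0 had a shared site, while 3 and 0 had a Hand1 peak and 10 and 5 a Foxf1 peak. At 100 kb the cardiac count rose to 2 with Hand1 itself. Nearness does not show which gene a site acts on.

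Other low sites near signalling and developmental genes, named here after their values were seen, had modest folds. A site 19.1 kb from the Wnt ligand gene Wnt8b (chr19:44474187-44474498) had 6.66 and 9.24. A site 83.9 kb from the Wnt inhibitor gene Dkk1 (chr19:30461799-30462180) had a Hand1 fold of 6.26 and a Foxf1 fold above its list median, with summits 82 bp apart. A site 2502 bp from Socs3 (chr11:117963360-117963700), an inhibitor of cytokine signalling, had 5.81 and 7.84. The site 11.1 kb from Crabp1 (chr9:54783996-54784575), a retinoic acid binding protein, stood apart with a Hand1 fold of 21.8 and a Foxf1 fold of 6.86.

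Nearest genes by family were counted over all 200 sites. Histone genes were nearest to 15 sites (8 genes), against 119 Hand1 and 8 Foxf1 peaks in the whole lists. Klrb1 receptor genes were nearest to 4 sites, against 6 and 7 peaks in the lists. Zinc finger genes of the Zfp series were nearest to 3 (40 and 93 in the lists), and olfactory receptor genes also to 3 (11 and 19). A single site had a ribosomal protein gene as its nearest, Rps29 beside Rn7s1, against 4 and 31 peaks in the lists. No Hand1 peak had a Hox gene as its nearest, so no shared site could.

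The sites high in both lists had median folds of 5.51 for Hand1 and 4.43 for Foxf1, against 8.22 and 7.61 in the low sites. Their median control levels were 21.8 and 33.3 fragments, against 1.74 and 3.42 in the low sites. The rule that set the classes fixed this second contrast. Fold is itself a ratio over the control level, so the first contrast is a description only. Ranked by the lower of the partners' control levels, each taken relative to the lowest of its list, the first 6 had folds of 1.51 to 1.87 for Hand1 and 1.29 to 3.20 for Foxf1. They included chr9:3006698-3006900, with control levels of 204 and 2701 fragments, chr9:3017868-3018059, 3 places on the unplaced scaffold JH584304, and chr12:120028712-120028986 near Tmem196. Not all sites of high control had low folds. A site inside Peak1 (chr9:56223525-56224023) had 21.6 and 26.0, a site inside Cntnap5b (chr1:100180101-100180419) 18.2 and 23.4, and a site inside Jarid2 (chr13:44869521-44870052), for a partner of the Polycomb complex, 13.2 and 10.6. These 3 genes were named after their values were seen. The intervals in Peak1 and Jarid2 each hold a second shared Hand1 summit of lower Hand1 fold, 12.6 and 5.97. The 7 sites high in 1 list had median folds of 7.07 and 13.0 and summits 6 to 62 bp apart.

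A run of neighbouring sites on chromosome 6 was mostly high in both lists. Between summits 47655058 and 47781673 lay 16 shared sites over 126.6 kb, 15 of them high in both. The gaps between the first 8 summits ran from 4314 to 4341 bp, and after a stretch of 54630 bp the gaps of 4236, 4361 and 4316 bp followed. The last gaps were less even, at 4851, 5584, 14879 and 3472 bp. The first summit lay inside Rn4.5s, a gene for a small rodent RNA whose copies are known to be repeated in tandem. Rn4.5s was not among the polymerase III classes counted above, so its site stands under the places elsewhere. Hand1 folds of the first 8 sites were 6.88 to 9.34 and Foxf1 folds 3.54 to 5.56. The last site of the run is the low site at Rny3. Chromosome 6 had 29 shared sites, 54.7% of its 53 Hand1 peaks. On chromosome 8, 3 sites at the 5S genes n-R5s117, n-R5s121 and n-R5s128 had Hand1 folds of 9.43, 9.59 and 10.9 and Foxf1 folds of 3.11, 3.82 and 3.75.

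**Figure D5:**
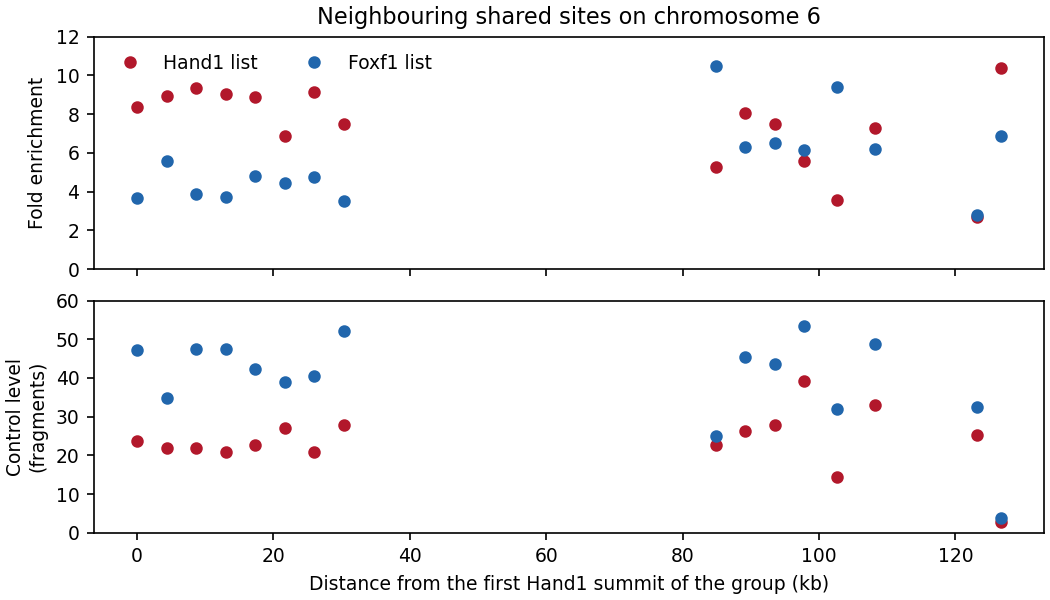
Fold enrichment (upper panel) and control level in fragments (lower panel) of the 16 neighbouring shared sites on chromosome 6, by distance in kb from the first Hand1 summit. The first 8 sites are evenly spaced, a long gap follows, and the later steps are less even; control levels are high at all sites but the last.

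No shared site came near the limit of 1 bp in common. The shared site with the fewest common bases, 153, lay on the scaffold JH584304 with folds of 1.98 and 1.73. Its Hand1 peak was only 162 bp wide. The next, at chr9:3006698-3006900, had 177 in common, and its Hand1 peak was 203 bp wide. Just outside, the nearest Hand1 peak that was not shared lay 28 bp from a Foxf1 peak on chromosome 4, with folds of 6.19 and 7.91. The next lay 138 bp away, with 13.0 and 6.38. The lists end at different limits, a −log10 q-value of 5.01 for Hand1 and 10.0 for Foxf1, so their lengths cannot be compared.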

How the data were processed

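The tools Trim Galore 0.6.6, Bowtie2 2.3.4.3, SAMtools 1.9, deepTools 3.5.0 and MACS2 2.2.7.1 and the build mm10 (GRCm38) are named, with no role, setting or control, per the submitters' processing notes. Depth per library is not given. The deposited narrowPeak lists hold, as the authors' values per summit, a score (10 times the −log10 p-value, decimals dropped), a fold ratio over background, the −log10 p-value, the −log10 q-value, and the summit offset, a deposited position in bp.

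Fragments k and control level λ were solved from fold = (k + 1)/(λ + 1) and the Poisson p-value at mean λ, taking the higher λ. The fragments came out whole within 0.05 for all 1134 and 5703 peaks, and the solver was checked on simulated data. Gene starts came from RefSeq GRCm38.p6 tables (27025 of 49997 genes have a given start; both gene ends were used otherwise). Which input served as control for which list is not given in the sources used here. The tables gave small RNA classes and promoters. Sites are named by the nearest protein-coding gene under a rule: the 12 strongest and the 10 strongest at protein-coding starts or ends among low sites, the 6 with the highest control, sites near listed genes, and the 5 closest and 5 farthest summits. The kinds of place, and tRNA, histone, snRNA and 5S genes named beyond the rule, were chosen after the values were seen. The members and lists were chosen with earlier results of these data known. Histone genes were matched by the symbols H1f to H4c, since the prefix planned at first, Hist, matched 0 genes. Motifs were searched in promoters only, as no genome sequence was used here. Alternatives are given in the closing section. Python 3.11.15, numpy 2.4.6, pandas 2.3.3, scipy 1.17.1 and matplotlib 3.10.9 were used.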

Additional observations from a re-analysis of the deposited data

How the results depend on the processing

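Of 25 alternative values for 6 results, 21 stayed within 1.5 times the value reported, or within the interval of the median. The 4 others are given next, and those that are counts fell because fewer sites or genes were counted. Keeping only low control levels left 128 shared peaks in place of 200 and moved the median summit distance from 31.5 to 47 bp. The sites high in both had a median of 16 bp, so the median depends on the control level of the sites kept. Counting protein-coding genes alone left 21 sites near a start in place of 72. At 10 kb in place of 50 kb, 0 listed genes had a shared site in place of 2. Across the other settings the shared count ran from 139 to 176 and the sites high in both from 50 to 75. No paired analysis was possible because each factor has 1 list, and for the same reason no replicate could be left out. The planned motif search around summits was not run. Depth is unknown, and weak summits rest on few inferred fragments, with a median of 25 for Hand1 and 33.5 for Foxf1 in low sites.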
